A study of Homo sapiens with 6 samples.

Results

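The genes described here are 10 heat shock genes: HSPE1 and HSPD1, which encode the mitochondrial co-chaperonin HSP10 and its partner chaperonin HSP60, and the cytosolic genes HSPA1A, HSPA1B, HSPA8, HSPH1, HSP90AA1, HSP90AB1, DNAJB1 and HSPB1. They were chosen by symbol, as 10 of the 34500 GENCODE 29 genes to which the listed transcripts were matched, and their values in the comparison below were known when they were chosen, so those values are given as a description without a test. The cells were RPMI 8226, an established human multiple myeloma line, grown with 10% fetal bovine serum. The shLuc group (n = 3) was transduced by lentivirus with a control vector carrying a short hairpin RNA (shRNA) against luciferase, which the cells lack, and the shHDAC1 group (n = 3) with a vector carrying an shRNA against the histone deacetylase HDAC1. Cells of both groups went through 48 h of puromycin selection before total RNA was sequenced, so both carry a lentiviral insertion and a puromycin resistance gene, and neither is an untransduced control. All libraries come from 1 cell line, the number of hairpin sequences used and the separation of the cultures are not stated in the labels, and the p-values measure only the spread between these libraries.

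Heat shock proteins are chaperones. HSPA8, HSPA1A and HSPA1B are cytosolic HSP70s, which bind unfolded stretches of proteins in a cycle of ATP hydrolysis. J-domain proteins such as DNAJB1 bring clients to HSP70 and stimulate its ATPase, and HSPH1 (HSP110) exchanges its nucleotide. HSP90, encoded by HSP90AA1 (the inducible alpha form) and HSP90AB1 (the constitutive beta form), takes clients on from HSP70, whereas HSPB1 (HSP27) is a small heat shock protein that holds unfolded proteins without ATP. HSP60 and HSP10 form the folding chamber of the mitochondrial matrix and its lid. Stress induces several of these genes through heat shock factor 1 (HSF1), which binds heat shock elements, inverted repeats of nGAAn units. Plasma cells and myeloma cells secrete immunoglobulin in large amounts and are known for a heavy load of protein folding.

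The measured quantity was TPM, each transcript's share of the length-scaled abundance of its library, which is scaled for transcript length, so that levels can be set side by side between genes. Read depth is not kept in this unit and is unknown. HDAC1 itself was lower in every shHDAC1 library, with a log2 fold change of -1.56 ± 0.08 (SE), measured as log2(TPM + 1) like every fold change below, and an adjusted p of 2.2e-06 in limma with Benjamini-Hochberg adjustment over 11857 genes. The shLuc libraries held 85.0 to 90.0 TPM of HDAC1 and the shHDAC1 libraries 27.0 to 31.8 TPM. Genes at 1 TPM or more numbered 11629 to 11688 in the shLuc libraries and 11837 to 11992 in the shHDAC1 libraries. Of 9 plasma cell and myeloma markers, 8 were at 1 TPM or more in every library, with SLAMF7 below 1 TPM in every library. Their summed level, most of it JCHAIN, was 8121 to 8935 TPM in shLuc and 6002 to 7259 TPM in shHDAC1. TNFRSF17 differed far more (164 to 170 TPM in shLuc, 31.8 to 33.5 TPM in shHDAC1), as did IRF4 (49.3 to 58.4 and 23.3 to 27.0 TPM). XBP1 differed less (355 to 376 and 304 to 325 TPM), PRDM1 overlapped, and SLAMF7 lay higher in shHDAC1. The part of these differences in the results below was not tested. All 4 T and NK cell markers and all 4 myeloid markers were below 1 TPM in every library. Of 4 fibroblast and epithelial markers EPCAM was at 70.8 to 90.8 TPM, COL1A1 at 0.38 to 2.17 TPM, and 2 were below 1 TPM in every library.

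The start regions of these genes are shown first, because shared and overlapping sequence decides which of their values can be told apart. Windows of 250 bases before to 50 after each gene start come from RefSeq (GRCh38.p14). They cover all 10 genes with 16 windows, among 35116 windows in all. HSPE1 and HSPD1 start head to head on opposite strands of chromosome 2. In the HSPE1 window at chr2:197500129-197500428 (plus strand) the capitals mark the 204 bases, at chr2:197500225-197500428, that also lie in the first HSPD1 window at chr2:197500225-197500524 (minus strand).
HSPE1: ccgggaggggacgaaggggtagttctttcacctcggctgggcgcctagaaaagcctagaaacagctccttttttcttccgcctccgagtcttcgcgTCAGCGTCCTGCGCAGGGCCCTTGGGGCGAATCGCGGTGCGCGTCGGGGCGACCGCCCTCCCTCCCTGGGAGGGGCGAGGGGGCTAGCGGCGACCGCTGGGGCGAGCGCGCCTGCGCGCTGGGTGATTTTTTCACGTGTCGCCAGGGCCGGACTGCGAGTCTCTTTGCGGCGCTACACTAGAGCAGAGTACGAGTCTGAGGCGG
The other HSPD1 window, at chr2:197499791-197500090 (minus strand), belongs to a second annotated start. Its capitals mark 2 overlapping matches to the 3-unit heat shock element GAANNTTCNNGAA on either strand, at chr2:197500068-197500085.
HSPD1: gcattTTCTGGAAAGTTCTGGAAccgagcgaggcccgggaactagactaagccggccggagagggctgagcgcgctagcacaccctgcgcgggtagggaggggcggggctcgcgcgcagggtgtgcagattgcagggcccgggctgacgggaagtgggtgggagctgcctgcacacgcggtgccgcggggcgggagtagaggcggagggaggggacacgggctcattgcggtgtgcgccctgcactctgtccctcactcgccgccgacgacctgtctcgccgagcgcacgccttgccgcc
The HSPA1A window at chr6:31815293-31815592 and the HSPA1B window at chr6:31827488-31827787 (both plus strand) show how alike these neighbouring HSP70 genes are. They aligned with 277 identical bases over 301 columns (92.0%), and the capitals mark matches to the 2-unit element GAANNTTC.
HSPA1A: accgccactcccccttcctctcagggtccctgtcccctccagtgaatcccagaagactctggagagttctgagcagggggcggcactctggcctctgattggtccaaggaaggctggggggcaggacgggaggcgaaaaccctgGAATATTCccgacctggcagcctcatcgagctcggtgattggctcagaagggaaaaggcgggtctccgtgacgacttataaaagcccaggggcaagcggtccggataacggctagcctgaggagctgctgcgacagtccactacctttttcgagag
HSPA1B: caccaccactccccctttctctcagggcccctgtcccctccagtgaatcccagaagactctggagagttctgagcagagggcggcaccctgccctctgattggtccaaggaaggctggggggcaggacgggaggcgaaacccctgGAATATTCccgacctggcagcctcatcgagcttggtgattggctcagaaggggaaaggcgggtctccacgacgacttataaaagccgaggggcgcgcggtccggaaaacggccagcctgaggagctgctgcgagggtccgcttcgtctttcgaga
HSP90AA1 has 2 annotated starts far apart. The window of the downstream start, at chr14:102086995-102087294 (minus strand), held 1 match to the 3-unit element, in capitals.
HSP90AA1 downstream start: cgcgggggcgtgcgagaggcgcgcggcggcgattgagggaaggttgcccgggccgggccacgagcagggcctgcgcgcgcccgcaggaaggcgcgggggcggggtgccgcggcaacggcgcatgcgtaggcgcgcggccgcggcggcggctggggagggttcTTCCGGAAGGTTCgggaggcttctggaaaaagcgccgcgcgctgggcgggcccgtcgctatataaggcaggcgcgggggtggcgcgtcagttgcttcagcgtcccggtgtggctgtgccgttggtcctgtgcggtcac
The window of the upstream start, at chr14:102139700-102139999 (minus strand), held no match to either element.
HSP90AA1 upstream start: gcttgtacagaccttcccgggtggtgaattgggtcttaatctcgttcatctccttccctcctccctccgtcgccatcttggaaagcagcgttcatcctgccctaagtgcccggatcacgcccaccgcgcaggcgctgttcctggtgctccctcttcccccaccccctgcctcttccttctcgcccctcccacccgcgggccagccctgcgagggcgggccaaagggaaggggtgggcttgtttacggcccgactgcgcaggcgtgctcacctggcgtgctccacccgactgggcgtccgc

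The 3-unit element GAANNTTCNNGAA, read on both strands, was found in 4 of the 16 windows (1 each of HSPD1, HSPA8, HSP90AA1 and HSP90AB1) and in 0.490% of all windows. The 2-unit element GAANNTTC, which lies within every match of the longer one, was found in 9 of the 16 windows, belonging to 8 of the 10 genes, and in 6.77% of all windows. The HSPE1 and HSPH1 windows held no match to either. TATAAA was found in 2 of the 16 windows, those of HSPA1A and HSPA1B, and in 11.5% of all windows. CCAAT was found in 7 of the 16 windows, belonging to 5 of the 10 genes, and in 34.6% of all windows. A match describes these letters only and is not evidence of a bound site.

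HSPE1 stood apart from the other heat shock genes: its level in the shHDAC1 libraries was 213% of that in the shLuc libraries, while the other genes that passed the filter on low values differed by log2 fold changes between -0.20 and 0.23. DNAJB1 was slightly higher in shHDAC1, and HSPA8, HSPD1 and HSP90AA1 were slightly lower. Of the 8 genes that passed the filter (1 TPM or more in at least 3 libraries), 2 had shHDAC1 libraries all above the shLuc libraries, 3 had them all below and 3 overlapped. Over all genes tested, 43.3% did not overlap: 27.4% lay wholly above and 16.0% wholly below. The median log2 fold change was -0.09 over these 8 genes and 0.07 over all genes tested. Since these are bulk samples, fewer cells with a transcript and less of it per cell cannot be told apart. On the primary assembly, which holds almost none of the HSPA1A and HSPA1B signal, the 10 genes together took 0.941% ± 0.008 (SD, n = 3) of all TPM in shLuc. In shHDAC1 they took 0.915% ± 0.017 (SD, n = 3), and the groups overlapped. With the alternative loci of HSPA1A and HSPA1B described below, the shares were 0.961% ± 0.007 and 0.937% ± 0.017 (SD, n = 3 each), also with overlap.

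In the shLuc libraries the order of the levels was HSPA8, HSPD1, HSP90AB1, HSP90AA1, HSPB1, HSPE1, HSPA1B, HSPH1, DNAJB1 and HSPA1A, counting HSPA1A and HSPA1B with the alternative loci described below. The libraries of neighbouring genes in this order did not overlap. In the shHDAC1 libraries HSPE1 stood in the fourth place, above HSP90AA1 and HSPB1. No neighbours overlapped in that order either.

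The genes of the chaperonin pair differed in direction. HSPE1 (ENSG00000115541.10, GRCh38 chromosome 2, 197499994 to 197503457, plus strand) measured 489.6, 486.8 and 442 TPM in shLuc replicates 1, 2 and 3 and 910.1, 1104 and 1009.9 TPM in shHDAC1 replicates 1, 2 and 3. Every shHDAC1 library lay above every shLuc library. The means were 473 ± 26.6 and 1008 ± 97.0 TPM (SD, n = 3 each), and the log2 fold change was 1.09 ± 0.08 (SE). Of the 11857 genes tested, 229 had a larger log2 fold change. HSPD1 (ENSG00000144381.16, chromosome 2, 197486581 to 197516737, minus strand) measured 2157, 2075 and 2182 TPM in shLuc and 1987, 1787 and 1827 TPM in shHDAC1. All shHDAC1 libraries were lower, by a much smaller margin than HSPE1 was higher. The means were 2138 ± 56.3 and 1867 ± 106 TPM (SD, n = 3 each), with a log2 fold change of -0.20 ± 0.06 (SE).

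The ratio of HSPD1 to HSPE1 in TPM was 4.41, 4.26 and 4.93 in shLuc and 2.18, 1.62 and 1.81 in shHDAC1. HSPD1 therefore stayed the more abundant of the pair in all 6 libraries. Counting protein-coding transcripts alone, the ratio averaged 4.12 ± 0.22 in shLuc and 1.87 ± 0.10 in shHDAC1 (SD, n = 3 each).

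The main protein-coding transcript HSPE1-201, with 4 exons and 950 bases, held 79.8% ± 4.55 of the gene sum in shLuc and 76.1% ± 6.83 in shHDAC1 (SD, n = 3 each). It measured 397, 364 and 369.9 TPM in shLuc and 750.4, 760.3 and 777 TPM in shHDAC1. This transcript alone was about as different between the groups as the whole gene. The retained-intron transcript HSPE1-204 measured 85.7, 109 and 69.0 TPM in shLuc and 151, 313 and 225 TPM in shHDAC1. It too lay higher in every shHDAC1 library, with a wide spread among them. HSPE1-206, another retained-intron transcript at a low level, averaged 2.30 ± 0.47 TPM in shLuc and 1.32 ± 0.26 TPM in shHDAC1 (SD, n = 3 each), with no overlap. The remaining 3 HSPE1 transcripts that passed the filter overlapped.

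The protein-coding transcript HSPD1-202 measured 775, 849 and 722 TPM in shLuc and 801, 818 and 852 TPM in shHDAC1, so that the groups overlapped for the most abundant HSPD1 transcript. HSPD1-201, also protein-coding, averaged 486 ± 51.1 TPM in shLuc and 411 ± 87.4 TPM in shHDAC1 (SD, n = 3 each), with overlap. The retained-intron transcript HSPD1-214 measured 465, 344 and 420.4 TPM in shLuc and 302, 210.5 and 319 TPM in shHDAC1. It and the minor HSPD1-203 were the HSPD1 transcripts whose shHDAC1 libraries all lay lower, of 11 that passed the filter. Between the leading transcripts of the pair, the ratio of HSPD1-202 to HSPE1-201 was 1.95, 2.33 and 1.95 in shLuc and 1.07, 1.08 and 1.10 in shHDAC1.

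**Figure D1:**
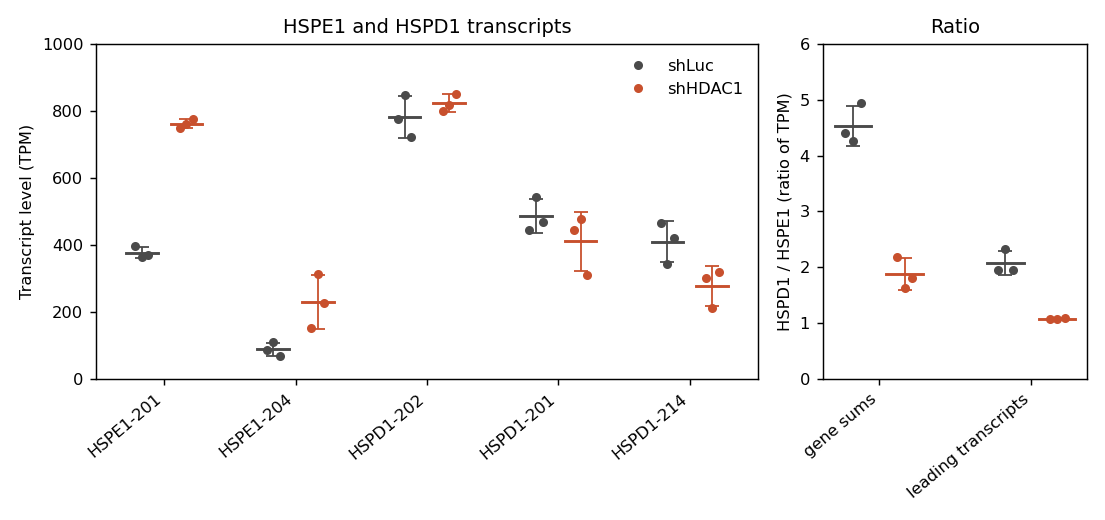
Left, levels in TPM of the leading HSPE1 and HSPD1 transcripts; right, the ratio of HSPD1 to HSPE1 by gene sums and by the leading transcripts (HSPD1-202 and HSPE1-201), with points for libraries, wide bars for means and thin bars for ± 1 SD (n = 3). HSPE1-201 lies at 364 to 397 TPM in shLuc and 750.4 to 777 TPM in shHDAC1, whereas HSPD1-202 overlaps, and both ratios lie lower in every shHDAC1 library.

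Part of the HSPE1 sequence could have received reads of its neighbours. In GENCODE 29 the HSPE1-201 transcript starts at 197499994, upstream of the RefSeq start at 197500379, and shares 281 exonic bases with HSPD1 transcripts on the opposite strand, among them 54 with HSPD1-202 (197499994 to 197500047) and 115 with HSPD1-201 (197500160 to 197500274). Of its 50-base stretches, 52.9% occurred in a transcript of another gene on either strand, with HSPD1 (25.7%) and the readthrough gene HSPE1-MOB4 (16.0%) holding the largest shares. The protein-coding HSPD1-209, which starts at 197500221 on the minus strand, shared 20.7% of its own 50-base stretches with HSPE1. It averaged 180 ± 74.6 TPM in shLuc and 102 ± 49.4 TPM in shHDAC1 (SD, n = 3 each), with overlap. Strand-specific counting is not stated, so reads of the overlap cannot be assigned to 1 strand here. HSPE1-204 has no exonic overlap with any HSPD1 transcript and shares 27.3% of its 50-base stretches with other genes. It shares 428 of its 700 bases with HSPE1-201, so the estimated levels of these transcripts are not independent of each other.

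HSPE1-MOB4, annotated from the HSPE1 locus into MOB4 (chromosome 2, 197500413 to 197550726), measured 26.5, 23.7 and 24.1 TPM in shLuc and 22.8, 31.7 and 28.7 TPM in shHDAC1. The groups overlapped, and the log2 fold change of 0.15 ± 0.12 (SE) had an adjusted p of 0.40 (limma). Its level was 5.24% ± 0.32 of the HSPE1 level in shLuc and 2.74% ± 0.20 in shHDAC1 (SD, n = 3 each). MOB4, a kinase-binding protein of the STRIPAK complex and the other partner of the readthrough, averaged 26.8 ± 5.13 TPM in shLuc and 20.1 ± 6.31 TPM in shHDAC1 (SD, n = 3 each), with an adjusted p of 0.15 (limma).

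HSPE1 has 26 annotated pseudogenes among the listed genes, of which 24 were listed at 0 in every library and the highest reached 1.55 TPM. The pseudogenes of HSPD1, 17 in number, summed to 2.64 to 4.21 TPM per library. Of 71 annotated pseudogenes of the heat shock genes listed in the files, 3 reached 1 TPM on average. These were HSP90AB2P, HSP90AB3P and HSPA8P1, and the highest value among them was 7.32 TPM, for HSP90AB2P.

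The cytosolic HSP70s were led by HSPA8, the constitutive HSC70 (ENSG00000109971.13, chromosome 11, 123057489 to 123063230, minus strand). HSPA8 measured 3742, 3659.6 and 3465 TPM in shLuc and 3327, 3224 and 3162 TPM in shHDAC1. The shHDAC1 libraries were all lower, although the highest of them lay close to the lowest shLuc library. The means were 3622 ± 142 and 3238 ± 83.6 TPM (SD, n = 3 each), with a log2 fold change of -0.16 ± 0.05 (SE). Its sum was spread over many annotated transcripts, 18 of which passed the filter. The most abundant, HSPA8-222, measured 1049, 1091 and 922 TPM in shLuc and 1015, 1047 and 909 TPM in shHDAC1, with overlap. HSPA8-224 measured 496, 411 and 546 TPM in shLuc and 387, 283 and 385 TPM in shHDAC1, with no overlap. HSPA8-213 and HSPA8-211 were lower without overlap too, whereas HSPA8-218 measured 0.099 to 0.98 TPM in shLuc and 2.18, 80.7 and 1.64 TPM in shHDAC1, so that replicate 2 alone carried its mean.

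The stress-inducible HSPA1A and HSPA1B lie next to each other in the major histocompatibility complex on chromosome 6, a region for which the genome reference also holds alternative haplotypes. HSPA1A (ENSG00000204389.9, 31815464 to 31817946, plus strand) was listed at 0 in all 6 libraries on the primary assembly. HSPA1B (ENSG00000204388.6, 31827735 to 31830255, plus strand) was at 0.93, 0.93 and 0.01 TPM in shLuc and 1.35, 0.67 and 0.90 TPM in shHDAC1. By these values neither gene passed the filter. The files also list 8 HSPA1A and 7 HSPA1B transcripts of alternative loci, and the primary assembly held between 0.0052% and 0.58% of the summed HSPA1A and HSPA1B signal of a library.

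With the transcripts of alternative loci, a sum chosen after the values were seen, HSPA1B measured 171, 172 and 190.4 TPM in shLuc and 199, 175 and 197 TPM in shHDAC1. The groups overlapped, with means of 178 ± 10.8 and 190.1 ± 13.5 TPM (SD, n = 3 each) and a log2 fold change of 0.09 ± 0.07 (SE), whose sign turned to -0.01 when each library was centred on its median. HSPA1A measured 28.9, 26.1 and 33.3 TPM in shLuc and 32.0, 28.0 and 39.5 TPM in shHDAC1. These overlapped as well, with a log2 fold change of 0.16 ± 0.13 (SE) that ranged from 0.029 without shHDAC1 replicate 3 and 0.079 without shLuc replicate 2 to 0.25 without shLuc replicate 3 and 0.27 without shHDAC1 replicate 2. The main carriers of this signal were 3 transcripts. ENST00000391555 of HSPA1B averaged 133 ± 13.4 TPM in shLuc and 137 ± 17.9 TPM in shHDAC1, ENST00000458062 of HSPA1B 42.5 ± 2.96 and 49.5 ± 4.34 TPM, and ENST00000400040 of HSPA1A 28.97 ± 3.68 and 32.1 ± 4.97 TPM (SD, n = 3 each).

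**Figure D2:**
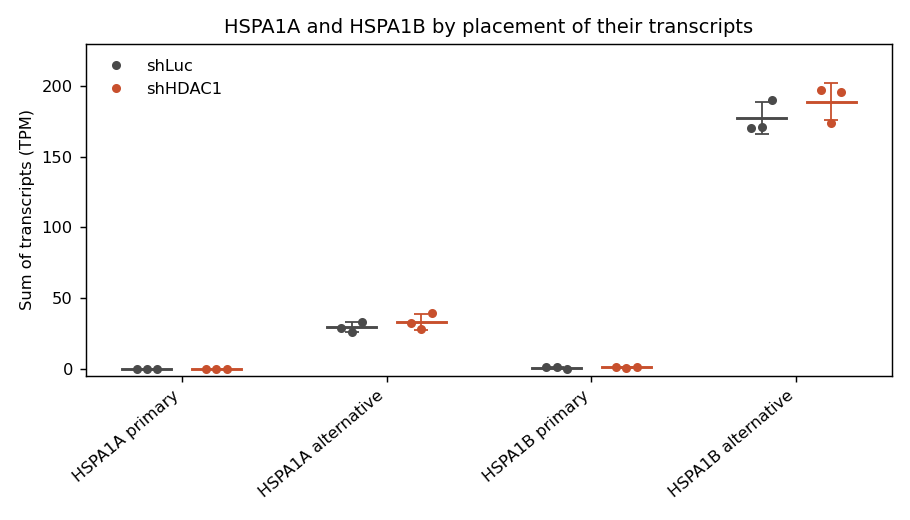
Summed TPM of HSPA1A and HSPA1B transcripts placed on the primary assembly and on alternative loci, in shLuc and shHDAC1 libraries; points are libraries, wide bars means and thin bars ± 1 SD (n = 3). Both genes are at or near 0 on the primary assembly, and their signal lies on the alternative loci, where the groups overlap.

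The split between HSPA1A and HSPA1B is uncertain. On the primary assembly the transcripts HSPA1A-201 and HSPA1B-201 aligned with 88.4% identity, and 72.6% of the 50-base stretches of HSPA1A-201 occurred in HSPA1B. A further gene, AL671762.1, held 33.8% of the 50-base stretches of HSPA1A-201 and 35.3% of those of HSPA1B-201. The sum of HSPA1A and HSPA1B does not depend on the split between them, but could depend on reads shared with AL671762.1. This sum measured 199.996, 198 and 224 TPM in shLuc and 231, 202 and 236 TPM in shHDAC1, with overlap. HSPA8 exceeded the 2 inducible genes together by a ratio of 17.5 ± 1.79 in shLuc and 14.6 ± 1.27 in shHDAC1 (SD, n = 3 each), and these overlapped.

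Of the cofactors of HSP70, DNAJB1 (HSP40; ENSG00000132002.7, chromosome 19, 14514770 to 14529770, minus strand) measured 89.1, 89.0 and 93.3 TPM in shLuc and 106, 103 and 109 TPM in shHDAC1. All shHDAC1 libraries were higher. The means were 90.5 ± 2.48 and 106 ± 2.78 TPM (SD, n = 3 each), with a log2 fold change of 0.23 ± 0.06 (SE). Its leading transcripts were both higher: DNAJB1-201 averaged 65.2 ± 1.39 TPM in shLuc and 73.9 ± 2.73 TPM in shHDAC1, and DNAJB1-208 averaged 22.0 ± 1.99 and 28.6 ± 1.52 TPM (SD, n = 3 each), neither with overlap. HSPH1 (ENSG00000120694.19, chromosome 13, 31134974 to 31162388, minus strand) measured 118, 134 and 119 TPM in shLuc and 123, 125 and 112 TPM in shHDAC1. These overlapped, with a log2 fold change of -0.05 ± 0.08 (SE), whose sign turned to 0.01 without shLuc replicate 2 and to 0.0026 without shHDAC1 replicate 3. None of the 50-base stretches of HSPH1 transcripts occurred in another gene.

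The cytosolic HSP90 genes differed from each other. HSP90AB1 (ENSG00000096384.19, chromosome 6, 44246166 to 44253888, plus strand) measured 1419.6, 1499.6 and 1467 TPM in shLuc and 1536, 1433 and 1466 TPM in shHDAC1. The groups overlapped, and the log2 fold change was 0.02 ± 0.05 (SE), turning to -0.08 with each library centred on its median, to -0.0056 without shLuc replicate 1 and to -0.012 without shHDAC1 replicate 1. HSP90AA1 (ENSG00000080824.18, chromosome 14, 102080738 to 102139699, minus strand) measured 898, 946 and 920.0 TPM in shLuc and 818, 814 and 794 TPM in shHDAC1. All shHDAC1 libraries were lower, with means of 921 ± 23.6 and 808 ± 12.8 TPM (SD, n = 3 each) and a log2 fold change of -0.19 ± 0.05 (SE). The ratio of HSP90AA1 to HSP90AB1 was 0.63 in each shLuc library and 0.53, 0.57 and 0.54 in the shHDAC1 libraries.

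The leading HSP90AA1 transcripts near the 2 starts printed above differed from each other. HSP90AA1-201 measured 559, 678 and 486 TPM in shLuc and 568, 652 and 547 TPM in shHDAC1, with overlap. It begins at 102087191, within the downstream window and upstream of the RefSeq start at 102087044. The 3-unit match of that window, at chr14:102087120-102087132, thus lies downstream of this annotated start. HSP90AA1-202, which begins at 102139686 near the upstream window, measured 283, 241 and 307 TPM in shLuc and 192, 152 and 193 TPM in shHDAC1. HSP90AA1-202 thus lay lower in every shHDAC1 library. Its share of the gene sum averaged 30.1% ± 4.13 in shLuc and 22.1% ± 3.02 in shHDAC1 (SD, n = 3 each). In both groups replicate 2 held the least HSP90AA1-202, and also the least HSP90AA1-208, HSPA8-224 and HSPD1-214. In both groups it held the most HSP90AA1-201 and HSPE1-204. The differences of these transcripts between the groups may therefore not be independent of each other, and the cause was not tested. HSP90AA1-208, annotated as a target of nonsense-mediated decay, also begins near the upstream window, at 102139465. It varied widely within both groups, from 20.2 to 121 TPM in shLuc and from 6.87 to 53.0 TPM in shHDAC1, with overlap. Of the 50-base stretches of HSP90AA1-201 and HSP90AA1-202, 18.2% and 21.4% occurred in another gene, chiefly the pseudogene HSP90AA2P. For HSP90AA1-202 the next was WDR20, with 3.90% of its stretches, so its level could depend on reads shared with WDR20.

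**Figure D3:**
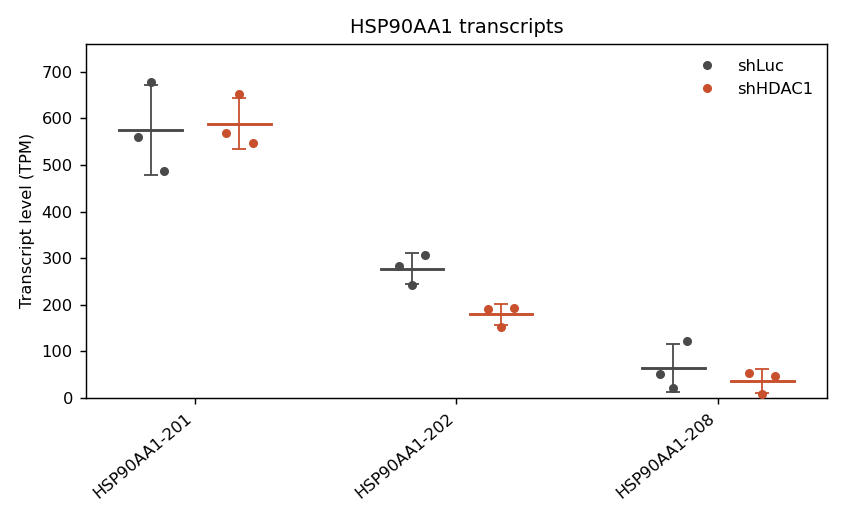
Levels in TPM of the 3 leading HSP90AA1 transcripts in shLuc and shHDAC1 libraries; points are libraries, wide bars means and thin bars ± 1 SD (n = 3). HSP90AA1-201 overlaps between the groups, and HSP90AA1-202 lies at 241 to 307 TPM in shLuc and 152 to 193 TPM in shHDAC1.

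The small heat shock gene HSPB1 (ENSG00000106211.8, chromosome 7, 76302544 to 76304295, plus strand) measured 568, 517 and 635 TPM in shLuc and 527, 496 and 536 TPM in shHDAC1. The groups overlapped, with a log2 fold change of -0.14 ± 0.08 (SE), which was -0.06 without shLuc replicate 3. Over the 54 heat shock transcripts that passed the filter, counting the primary assembly, 5 lay wholly above in shHDAC1, 7 wholly below and 42 overlapped. Over all transcripts that passed, 25.6% did not overlap: 14.6% lay wholly above and 11.0% wholly below.

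The 5 genes with a pattern over the 6 libraries nearest to that of HSPE1, by Euclidean distance between log2(TPM + 1) values centred on the shLuc mean, were CSAG3 (distance 0.14), LYSMD2 (0.15), PSMB9 (0.18), IFIT5 (0.22) and MRPL21 (0.22). PSMB9 encodes an interferon-inducible subunit of the immunoproteasome, IFIT5 an interferon-induced RNA-binding protein, and MRPL21 a protein of the mitochondrial ribosome. MRPL21 averaged 118 ± 6.31 TPM in shLuc and 239 ± 10.8 TPM in shHDAC1 (SD, n = 3 each), and the others were at 9.32 to 21.7 TPM in the shLuc libraries and 21.7 to 50.7 TPM in the shHDAC1 libraries. PSMB9 lies in the same region as HSPA1A, and its 42 transcripts on alternative loci are not in these sums.

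The other genes of the folding network were read from 8 lists chosen by function, 104 genes in all, of which 85 passed the filter. In shHDAC1, 10 rose and 13 fell at an adjusted p below 0.05 (limma, Benjamini-Hochberg over all genes tested). That is 27.1% of the 85, beside 27.2% of all genes tested (16.9% higher and 10.3% lower). Among lists with 10 to 20 genes tested, 43.75% of the chaperonin and prefoldin genes and 40% of the HSP70 cofactors were called. The share was 31.25% for J-domain proteins, 25% for HSP90 co-chaperones and 6.25% for mitochondrial chaperones and proteases. No list was tested against the share of all genes. The median log2 fold change over the 85 genes was 0.03, against 0.07 over all genes tested. In fits with 1 library fewer, 4 to 10 genes of the lists fell and 7 to 10 rose, and 4 rose and 18 fell when each library was centred on its median, which over all genes tested gave 1336 higher and 1828 lower calls in place of 2007 and 1219.

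No heat shock factor or factor-binding protein passed the test among 4 tested (limma), and 0 of the 4 had an unadjusted p below 0.05. HSF1 averaged 136.8 ± 2.92 TPM in shLuc and 149 ± 9.91 TPM in shHDAC1 (SD, n = 3 each). Its log2 fold change was 0.12 ± 0.07 (SE), with an adjusted p of 0.22 (limma). Its lowest shHDAC1 library (140.5 TPM) lay just above its highest shLuc library (139.9 TPM). Over all genes tested, 27.4% lay wholly above. The other cytosolic HSP70 and HSP110 genes that could be tested were HSPA4 and HSPA14, of 8 listed, and 0 passed, with 0 at an unadjusted p below 0.05 (limma). HSPA6, a strictly stress-inducible HSP70, measured 0.29 to 0.56 TPM in shLuc and 0.76 to 1.09 TPM in shHDAC1. The groups did not overlap, but HSPA6 did not pass the filter and was not tested. The share of 27.4% covers only genes that passed the filter, and none was counted for genes at such low levels.

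Of the J-domain proteins, 3 of 16 tested rose and 2 fell. DNAJC5, the cysteine string protein of exocytic vesicles, rose from 10.4 ± 0.50 to 19.6 ± 1.78 TPM (SD, n = 3 each). DNAJA1, a major cytosolic HSP40, rose from 231 ± 14.4 to 292 ± 8.79 TPM, and DNAJB6, a suppressor of aggregation, rose with a log2 fold change of 0.30 ± 0.07 (SE). With median centring the adjusted p was 0.051 for DNAJA1 and 0.058 for DNAJB6 (limma). DNAJB12, a J-domain protein of the endoplasmic reticulum membrane, fell from 9.82 ± 0.58 to 5.62 ± 1.26 TPM, and the ribosome-associated DNAJC2 fell with a log2 fold change of -0.32 ± 0.08 (SE).

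Of the 10 genes listed as cofactors that bind HSP70 in its nucleotide cycle or in the handover of its clients, 1 rose and 3 fell. STUB1 (CHIP), the ubiquitin ligase that binds HSP70 and HSP90, measured 60.0, 47.3 and 47.6 TPM in shLuc and 118, 116 and 117 TPM in shHDAC1. Its log2 fold change was 1.17 ± 0.10 (SE), with an adjusted p of 4.3e-05 (limma). BAG4 fell from 7.66 ± 0.91 to 3.71 ± 0.27 TPM (SD, n = 3 each). BAG1 and the HSP70-interacting protein ST13 fell by smaller amounts, with log2 fold changes of -0.21 ± 0.06 and -0.17 ± 0.05 (SE), and that of ST13 was -0.083 with protein-coding transcripts alone and -0.092 with quantile normalization.

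Of 20 HSP90 co-chaperones, 2 rose and 3 fell. CDC37, which brings protein kinases to HSP90, measured 101, 109 and 94.8 TPM in shLuc and 280.4, 281 and 309 TPM in shHDAC1. All shHDAC1 libraries lay well above, with a log2 fold change of 1.503 ± 0.073 (SE) and an adjusted p of 1.4e-06 (limma). PTGES3 (p23), which stabilises the closed form of HSP90, fell from 1009.9 ± 84.0 to 853 ± 55.1 TPM (SD, n = 3 each). AHSA1, an activator of the HSP90 ATPase, and TTC4 fell with log2 fold changes of -0.18 ± 0.05 and -0.24 ± 0.08 (SE).

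Of 16 chaperonin and prefoldin genes, 2 rose and 5 fell. The prefoldin subunits PFDN1 and PFDN2 went opposite ways: PFDN1 fell from 58.0 ± 4.49 to 37.6 ± 3.86 TPM, and PFDN2 rose from 198 ± 3.21 to 261 ± 9.11 TPM (SD, n = 3 each). Among subunits of the cytosolic chaperonin, TCP1 fell from 675 ± 24.2 to 543 ± 18.1 TPM (SD, n = 3 each) and CCT8 with a log2 fold change of -0.27 ± 0.07 (SE), whereas CCT3 rose with one of 0.14 ± 0.05 (SE). The rise of CCT3 had an adjusted p of 0.048 (limma), and with median centring its log2 fold change was 0.046. That of CCT8 was -0.46 with protein-coding transcripts alone.

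Of 16 mitochondrial chaperones and proteases, the compartment in which HSP10 and HSP60 act, 1 rose and 0 fell, and 3 had an unadjusted p below 0.05 (limma). That 1 was HSCB, a J-domain protein of iron-sulphur cluster assembly, with a log2 fold change of 0.45 ± 0.13 (SE), which was 0.15 with an adjusted p of 0.48 (limma) when protein-coding transcripts alone were summed. Of the other small heat shock genes only HSPB11, now known as an intraflagellar transport subunit, could be tested of 9 listed, and it rose with a log2 fold change of 0.25 ± 0.08 (SE), which was 0.15 with median centring.

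CDC37, STUB1, DNAJC5, BAG4, DNAJB12, PFDN1, PFDN2 and TCP1 kept their calls under all 15 alternatives tried, and DNAJA1 and DNAJB6 lost theirs only with median centring. The calls of BAG1, TTC4 and CCT3 were lost whichever library was left out, with adjusted p-values of 0.057 to 0.095, 0.051 to 0.15 and 0.061 to 0.14 (limma). Those of DNAJC2 (0.050 to 0.059), ST13 (0.073 to 0.13), AHSA1 (0.056 to 0.13), PTGES3 (0.062 to 0.11), HSPB11 (0.058 to 0.14), CCT8 (0.052 to 0.082) and HSCB (0.053 to 0.098) were lost in 4 or 5 of the 6 fits that left out 1 library, where limma gave these adjusted p-values. The folds of these genes kept their direction in those fits: the log2 fold change ranged from -0.23 to -0.18 for BAG1, from -0.27 to -0.20 for TTC4 and from 0.14 to 0.15 for CCT3. Among the other genes it ranged from -0.38 to -0.25 for DNAJC2, from -0.18 to -0.16 for ST13, from -0.20 to -0.16 for AHSA1, from -0.29 to -0.18 for PTGES3, from 0.19 to 0.30 for HSPB11, from -0.32 to -0.21 for CCT8 and from 0.35 to 0.53 for HSCB.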

How the data were processed

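RNA-seq libraries of RPMI 8226 cells (shLuc, n = 3; shHDAC1, n = 3) were deposited as TPM values per transcript, 173259 transcripts per library. Per the submitters' processing notes, STAR, DESeq and hg19 were used, without versions or roles; the tool that made the TPM values, its annotation and its strand setting are not stated there or in the labels. Depth per library is therefore unknown. Per the labels' protocols, DNase-treated total RNA went into an NEBNext Ultra RNA kit.

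Here, 159239 transcripts (91.9%) were matched by identifier to GENCODE 29 (GRCh38, used for names, types and coordinates alone) and summed to 34500 genes. A further 11368 transcripts belong to alternative loci and entered an added alternative and the HSPA1A and HSPA1B sums. Gene sums that reached 1 TPM in 3 or more libraries were tested as log2(TPM + 1) with limma 3.58.1 (R 4.3.3, variance trend, group as the term, Benjamini-Hochberg over 11857 genes, threshold 0.05), after a check on simulated data. The summaries used Python 3.11.15 and pandas 2.3.3. The heat shock genes and the network lists were chosen with earlier results of these data known. Named besides the heat shock genes were HDAC1, HSF1, the readthrough pair, up to 3 called genes per list and direction by smallest p, and the 5 genes nearest to HSPE1; 1 gene that this rule names is not reported here. Alternatives covered scaling, filter, pseudocount, protein-coding transcripts, a replicate block and each library left out.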

Additional observations from a re-analysis of the deposited data

How the results depend on the processing

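HSPE1 kept its direction under all 15 alternatives that apply to it, with log2 fold changes from 0.99 (median centring) to 1.16 (without shHDAC1 replicate 1). HSPA8, HSPD1, HSP90AA1 and HSPB1 stayed lower and DNAJB1 and HSPA1A higher under every alternative run on them, HSPA1A between 0.029 (without shHDAC1 replicate 3) and 0.27 (without shHDAC1 replicate 2). Centring each library on its median, which moved the median log2 fold change of all genes by -0.10, gave 0.13 for DNAJB1, -0.29 for HSP90AA1, -0.082 for HSP90AB1, -0.0096 for HSPA1B, -0.26 for HSPA8, -0.29 for HSPD1 and -0.14 for HSPH1. With protein-coding transcripts alone HSP90AA1 was at -0.15 and HSPD1 at -0.13. Median centring called 1336 genes higher, against 2007, and 4 network genes higher, against 10. Leaving out 1 library called 1295 (without shHDAC1 replicate 1) to 1981 genes higher and 867 to 1076 lower, and 1303 higher without shLuc replicate 1. In the network lists the same fits called 7 to 10 genes higher and 4 to 10 lower, against 13 lower: 4 without shLuc replicate 1, shHDAC1 replicate 1 or shHDAC1 replicate 3, 5 without shLuc replicate 2 and 7 without shLuc replicate 3. Deviations of same-numbered libraries from their group means correlated at -0.10, 0.18 and 0.03, and those of differently numbered libraries at -0.16 to 0.15. Centring 3 libraries per group ties these values together, so whether the numbers pair the samples cannot be told from them. With the replicate block 1979 genes were higher and 1264 lower, 11 and 14 of them in the network lists, and the named network genes all kept their calls. Beside the losses on leaving out a library, calls ended under median centring for DNAJA1, DNAJB6, HSPB11, CCT3 and HSCB, under quantile normalization for ST13, AHSA1, HSPB11, CCT8 and HSCB, without a filter for PTGES3, TTC4, HSPB11, CCT3, CCT8 and HSCB, and with protein-coding transcripts alone for ST13, AHSA1, TTC4, CCT3 and HSCB; the cause was not tested. Without read counts, low values cannot be given a counting error.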
